A study of Mus musculus with 12 samples.

Results

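The cytosolic ribosomal protein genes encode the protein parts of the ribosome that translates nuclear-encoded mRNA. On mouse MG_U74Av2 arrays they were taken as the genes whose probe sets carry exactly 1 symbol of the form Rpl or Rps plus a number (with an optional a, l, x or y), or Rplp0, Rplp1 or Rplp2. That gave 46 probe sets and 32 genes of 8251 genes with a symbol of their own, 16 of the large subunit and 16 of the small subunit. Each gene was read from its probe set with the highest mean over the 12 arrays.

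The arrays hold structures dissected by shape from kidneys of wild-type Swiss Webster mouse embryos at E14.5, Theiler stage 22, of unknown sex. The renal vesicle is the first epithelial ball of a forming nephron and the S-shaped body is the curved, segmented stage that follows it. The collecting duct is the branching tube to which nephrons connect, and it served as the reference of the study. Renal vesicles (replicates 2, 3 and 4) and S-shaped bodies (replicates 1, 2 and 3) came in pools of 20 structures, collecting ducts (replicates 1, 2 and 3) were not pooled, and a further 3 arrays (replicates 3, 4 and 5) each held 1 S-shaped body, a test of how far amplification of so little RNA can be trusted. All RNA went through 2 rounds of T7 amplification. A biological replicate is 1 such sample. No treatment or allele distinguishes the groups.

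A ribosome holds 1 copy of nearly every ribosomal protein, so the genes must yield their products in near equal amounts, and growing cells spend much of their transcription on them. The mRNAs start with a short pyrimidine tract, the TOP motif, through which mTOR signalling controls their translation. Large-subunit proteins surround the peptidyl transferase centre, the exit tunnel and the acidic stalk that recruits elongation factors, and small-subunit proteins surround the mRNA channel and the decoding centre. Mutations that lower 1 copy of genes such as RPS19 cause Diamond-Blackfan anaemia.

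Promoters of these genes share short sequence features, and those of the genes called in 3 or more of the 5 comparisons described further on are shown here for reference, except Rpl8, which was not matched to a window. RefSeq promoter windows of 300 bases (build GRCm38.p6, 250 bases before to 50 after the start) were found for 25 of the 32 genes, in 34 windows, some of which overlap within a gene. The pyrimidine motif CTTTC on the gene strand was in 70.6% of these windows against 34.8% of all 32851 windows. The ETS core CCGGAAG, on either strand, was in 29.4% against 8.86%, and the YY1 core AANATGGC, on either strand, in 26.5% against 6.05%. The GC box GGGCGG, on either strand, was in 52.9% against 35.7%, whereas the TATA box TATAAA on the gene strand was in 8.82% against 8.32%. Matches of different motifs shared no base in these windows. A match is a run of letters and not a measured binding site. Below are the 120 bases before and 25 after the first listed start of Rpl37a (chr1:72711140-72711284, plus strand), Rpl13a (chr7:45128721-45128865, minus strand), Rpl19 (chr11:98026590-98026734, plus strand), Rps19 (chr7:24884472-24884616, plus strand), Rps27l (chr9:66945966-66946110, plus strand) and Rps3 (chr7:99483685-99483829, minus strand), 5′ to 3′ on the gene strand, with matches to these motifs in capitals.
Rpl37a: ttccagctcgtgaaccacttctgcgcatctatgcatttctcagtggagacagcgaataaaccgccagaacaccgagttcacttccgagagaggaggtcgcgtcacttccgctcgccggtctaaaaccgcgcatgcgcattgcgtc
Rpl13a: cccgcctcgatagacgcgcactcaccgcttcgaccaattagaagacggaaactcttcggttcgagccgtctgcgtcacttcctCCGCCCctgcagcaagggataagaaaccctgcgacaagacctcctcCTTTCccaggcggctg
Rpl19: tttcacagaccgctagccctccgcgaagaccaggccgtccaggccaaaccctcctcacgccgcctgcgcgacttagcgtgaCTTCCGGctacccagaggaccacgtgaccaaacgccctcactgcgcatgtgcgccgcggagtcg
Rps19: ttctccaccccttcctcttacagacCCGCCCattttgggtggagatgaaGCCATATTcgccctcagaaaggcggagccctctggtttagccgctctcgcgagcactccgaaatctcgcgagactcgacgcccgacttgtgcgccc
Rps27l: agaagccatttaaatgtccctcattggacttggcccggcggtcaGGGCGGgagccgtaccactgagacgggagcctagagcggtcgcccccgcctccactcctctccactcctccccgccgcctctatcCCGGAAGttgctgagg
Rps3: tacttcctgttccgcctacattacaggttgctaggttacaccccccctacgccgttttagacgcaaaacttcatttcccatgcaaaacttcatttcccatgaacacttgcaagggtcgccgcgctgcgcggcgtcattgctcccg
The capitals mark a GC box and then a CTTTC in Rpl13a, an ETS core in Rpl19, a GC box and then a YY1 core in Rps19, and a GC box and then an ETS core in Rps27l. The Rpl37a and Rps3 stretches held no match.

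Levels below are log2(quantile-normalized intensity + 7.22), where quantile normalization gives all arrays the same set of values and the pseudocount is 25% of the median. Each array's background level was read from its negative deposited values, as the size of the value at the bottom 5% of the array, and a probe set brighter than that level is called above background. Intensities of different probe sets depend on their probes, so levels of different genes are not ordered by amount of mRNA.

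Of the 32 genes, 20 were above background on all 12 arrays (10 large, 10 small), 8 on some arrays and 4 on 0 arrays. The brightest were Rps24 (mean 12.65 over 12 arrays), a small-subunit protein, Rpl7 (12.10) and Rps28 (12.02). Rplp0, the base of the stalk, came next; no probe set was named for Rplp1 or Rplp2 alone. At the other end lay Rpl35a (2.85 on every array, the value of a zero signal), Rps14 (mean 3.25) and Rpl39l (3.42), a paralog of the exit-tunnel protein Rpl39. Rps20 was the remaining gene above background on 0 arrays.

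**Figure D1:**
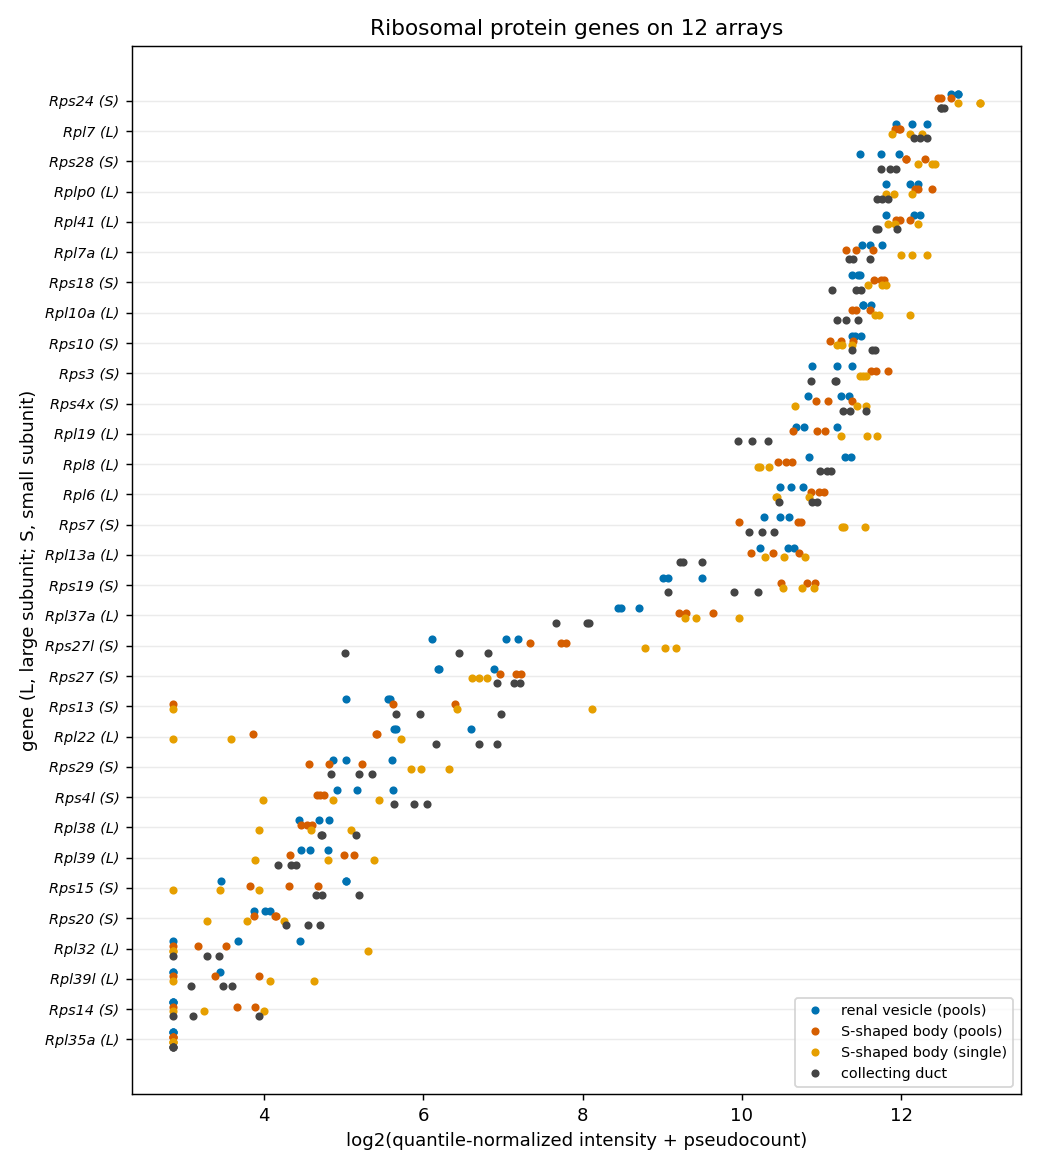
Log2 level of each of the 32 genes (rows, ordered by mean) on each of the 12 arrays (points, coloured by group; 3 arrays a group). The upper 20 rows are the genes above background on all arrays; Rpl35a at the bottom sits at 2.85 on every array.

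Probe sets of the same gene differed widely. Rpl7 read 12.10 with its chosen probe set and 3.11 with the other, Rps4x read 11.22 against 2.85 to 3.58 with its other 4, and Rps28 read 12.02, 10.66 and 4.15. Rps24 read 12.65 with a probe set that shares its source accession with the chosen probe set of Rpl7, and 5.43 with its other. For 10 of the 32 genes the chosen probe set carries a suffix (_f, _s or _r) that marks probes of mixed or shared sequence, so signal from paralogs and pseudogenes, of which this family has many, cannot be told apart from the gene's own there.

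The arrays differed in overall brightness. Array medians of deposited intensity spanned 17.8-fold, from 3.48 on a single S-shaped body to 61.9 on a collecting duct, whereas array maxima spanned 2.45-fold. Between 48.3% and 54.4% of probe sets were above background on the single-structure arrays and between 54.9% and 59.7% on the others. The ratio of 3′ to middle actin probe sets was 3.22 to 3.92 in pooled S-shaped bodies and 6.29 to 10.4 in the other groups, and the 3′ to 5′ ratio of Gapdh was 21.2 to 28.3 against 8.23 to 14.53. The 3′ to 5′ ratio of actin was 75.8 to 91.4 on the single-structure arrays and 27.7 to 46.6 on the other arrays apart from collecting duct replicate 2 (89.4). Sums over the collecting duct and early nephron marker lists followed the labels, while some members of both lists did not. Of 14 collecting duct markers measured, 9 were above background on all collecting duct arrays. The list had summed normalized intensities of 10529 to 11564 there against 228 to 1669 elsewhere. Krt19 and Cldn4 were above background on 0 arrays of the other groups, and Ret, Aqp2 and Wnt7b on 0 arrays of any group. Calb1 and Wnt11 were above background on 0 collecting duct arrays but on some renal vesicle and pooled S-shaped body arrays. Of 12 of these markers tested, 1 was called higher and 9 lower in renal vesicles than in collecting ducts. Of 11 early nephron markers measured, 11 were above background on all renal vesicle arrays and 3 on all collecting duct arrays (sums of 3678 to 7493 and 159 to 234). Pooled and single S-shaped bodies had sums of 5635 to 6265 and 5377 to 6663. Wnt4 was above background on 0 arrays of either, and Dll1 on 0 pooled arrays. Against collecting ducts, 8 of 11 were called higher and 1 lower in pooled ones, and 7 of 10 higher and 1 lower in single ones. Against renal vesicles, 2 of 11 were higher and 7 lower in pooled ones. Markers of other cell types also differed between the groups. Sums over 9 endothelial markers were 1504 to 3176 in renal vesicles against 47.5 to 84.2 in collecting ducts, with 6902 to 8438 and 6540 to 8732 in pooled and single S-shaped bodies. For 11 stroma markers the sums were 458 to 2146, 43.2 to 69.3, 5268 to 5992 and 6399 to 8202 in the same order, and for 8 red blood cell markers 206 to 872, 205 to 286, 5336 to 7095 and 1305 to 4866. Of these, Cdh5, Flt1, Kdr, Pecam1, Col1a2 and Foxd1 were above background on 0 collecting duct arrays. Sums over 7 macrophage and leukocyte markers stayed between 40.6 and 149 in every group, with Ptprc, Cd68 and Adgre1 above background on 0 arrays. The part that these cell types and the RNA ratios play in the differences described next was not tested. In such bulk samples, fewer cells of a type and less RNA per cell cannot be told apart.

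Within each array, which needs no scaling between arrays, the 32 genes held the largest share of the summed intensity in single S-shaped bodies. Their share was 4.68%, 4.32% and 3.74% in single S-shaped bodies. Renal vesicles gave 2.30%, 2.31% and 2.83%, and pooled S-shaped bodies 2.35%, 2.23% and 2.24%. Collecting ducts gave 1.88%, 2.19% and 1.79%. The means ± SD (n = 3) were 4.25% ± 0.476, 2.48% ± 0.302, 2.27% ± 0.0635 and 1.95% ± 0.212 in that order. The single-structure arrays did not overlap any other group, and the lowest renal vesicle and pooled S-shaped body arrays lay above the highest collecting duct array. The share of the 100 brightest probe sets of any kind moved the same way: it was 25.3% to 27.4% in single S-shaped bodies, 17.5% to 19.6% in renal vesicles, 15.2% to 16.02% in pooled ones and 14.04% to 15.98% in collecting ducts. Of those 100, between 8 and 12 were ribosomal protein probe sets. Read with the other Rps24 probe set, the mean shares became 3.34%, 2.14%, 2.02% and 1.71%, in the same order.

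The subunits moved unequally. In single S-shaped bodies the small-subunit share was 2.28% ± 0.291 and the large-subunit share 1.97% ± 0.207 (SD, n = 3). In the other groups the large subunit held the higher mean, with 1.35% ± 0.163 against 1.14% ± 0.140 in renal vesicles. The order in single S-shaped bodies rests on 1 probe set of Rps24: with the other one the small-subunit share there was 1.37% ± 0.0833, below the large-subunit share as in the other groups. Over the 20 genes above background on all arrays, the geometric mean of the 10 large-subunit genes divided by that of the 10 small-subunit genes was 1.79, 2.02 and 1.94 in renal vesicles. Pooled S-shaped bodies gave 1.41, 1.41 and 1.40, followed by 1.51, 1.29 and 1.15 in single ones and 1.33, 1.33 and 1.58 in collecting ducts. Renal vesicles therefore did not overlap any other group. Without Rps19 the renal vesicle values fell to between 1.63 and 1.86, and still lay above the 1.12 to 1.48 of the other 3 groups. With Rps24 left out they ranged from 2.18 to 2.47, against 1.40 to 2.01 elsewhere. Only 1 gene was left out at a time. Rps27 and Rps27l, 2 dim genes of the small subunit, weigh as much in this ratio as bright ones. Like Rps19, both had a lower mean level in renal vesicles than in pooled S-shaped bodies. The ratio was not taken without all 3, and the gap to pooled S-shaped bodies need not hold there. The ratio depends on probe brightness and is meaningful only between arrays, not as a ratio of subunit amounts.

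**Figure D2:**
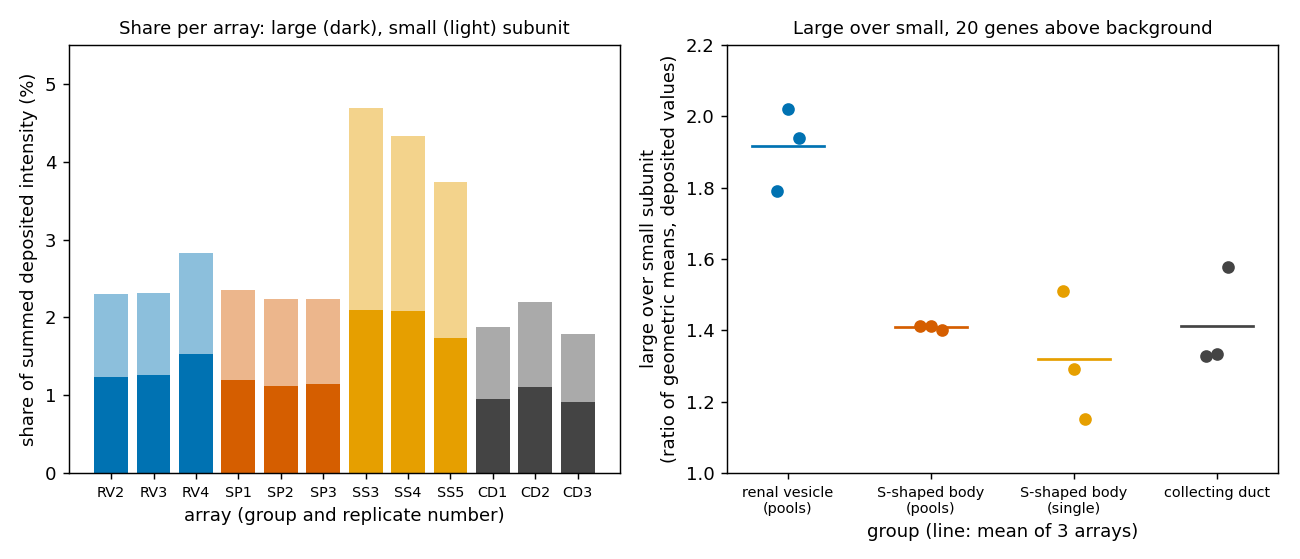
Left, share of the summed deposited intensity (%) held by the large-subunit (dark) and small-subunit (light) genes on each array, RV renal vesicle, SP pooled and SS single S-shaped body, CD collecting duct. Right, large over small subunit (ratio of geometric means, axis from 1) for 20 genes, 1 point an array and a line at the mean of 3; renal vesicles lie between 1.79 and 2.02, above the other groups.

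Changes between groups were tested with limma on 9316 probe sets, and a gene was called where its Benjamini-Hochberg adjusted p was under 0.05. The 9 arrays of the other 3 groups shared 1 fit, and each comparison of single structures was fitted on its own 6 arrays. A low-signal filter removed Rpl32, Rpl35a and Rps14 from every comparison and Rpl39l from the 9-array fits, which left 28 and 29 of the 32 genes. The comparisons with collecting duct share its 3 arrays, so their values are not independent.

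With quantile normalization, renal vesicles differed from collecting ducts in few ribosomal protein genes, and those belonged to the large subunit. Other scalings, described further on, called more genes, with small-subunit genes among them. Of 28 genes tested 3 were higher and 0 lower, beside 12.3% of all probe sets higher and 11.6% lower, so the members' share of 10.7% higher was near the background. At an unadjusted p under 0.05, 9 of the 28 genes passed, beside 36.5% of all probe sets. The median change was 0.06 over the 28 genes, against -0.02 over all probe sets. Large-subunit genes had 3 of 13 higher and a median of 0.24, small-subunit genes 0 of 15 and -0.13.

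Rpl13a, a large-subunit protein often used as a reference gene in expression work, read 10.23, 10.66 and 10.58 in renal vesicles and 9.26, 9.49 and 9.23 in collecting ducts. The groups did not overlap, with a log2 change of 1.16 ± 0.17 (SE) and an adjusted p of 0.000636 by limma. Rpl19, another reference gene, read 10.68, 10.78 and 11.20 against 10.13, 10.33 and 9.95. Every renal vesicle array lay above every collecting duct array, by 0.75 ± 0.16 on average (adjusted p 0.00681 by limma). The second Rpl19 probe set, dim at 3.88, 3.15 and 3.75 against 2.85, 4.04 and 4.34, changed by -0.15 (adjusted p 0.836 by limma). Rpl37a, a zinc-finger protein of the large subunit, read 8.45, 8.48 and 8.71 against 7.66, 8.08 and 8.06, a change of 0.61 ± 0.17 (adjusted p 0.0239 by limma). This last call was lost without renal vesicle replicate 4 or collecting duct replicate 1 (adjusted p up to 0.0900 when 1 array was left out). It was also lost in fits without the mean-variance trend, with all 12 arrays, or with the replicate number as a block. The block also ended the Rpl19 call. All 3 genes kept their direction with 75th percentile and trimmed mean scaling. They turned on the deposited scale (-0.18, -0.55 and -0.87), where the median of all probe sets shifted by -1.39.

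Against collecting ducts, more of the genes were called in pooled S-shaped bodies than in renal vesicles, as were more of all probe sets. Of 28 genes 8 were higher (28.6%) and 4 lower (14.3%), beside 18.2% of all probe sets higher and 20.0% lower. The median change was 0.09 against -0.07 over all probe sets, with 4 higher and 2 lower in each subunit. The same 3 large-subunit genes were among those higher, with Rpl37a at 9.64, 9.29 and 9.22, a change of 1.45 ± 0.17 (adjusted p 6.7e-05 by limma). Rpl13a read 10.39, 10.11 and 10.72, higher by 1.08 ± 0.17, and Rpl19 read 11.04, 10.64 and 10.94, higher by 0.74 ± 0.16.

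Rps27l, a paralog of Rps27 known as a p53 target, read 7.73, 7.34 and 7.79 in pooled S-shaped bodies against 6.44, 6.82 and 5.02 in collecting ducts. The change was 1.52 ± 0.43 (adjusted p 0.0162 by limma), with collecting duct replicate 3 well below the other two arrays; without it the change was 0.99. Leaving out pooled S-shaped body replicate 1 or 3 ended the call (adjusted p up to 0.0542). Rps19, which helps mature the small subunit, read 10.91, 10.49 and 10.81 against 9.91, 10.21 and 9.07. It was higher by 1.01 ± 0.26 (adjusted p 0.00968 by limma), and by 0.68 without collecting duct replicate 3.

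Rplp0, the stalk base, read 12.18, 12.21 and 12.39 in pooled S-shaped bodies against 11.84, 11.69 and 11.76 in collecting ducts, higher by 0.50 ± 0.11 (adjusted p 0.00499 by limma). Rps3, at the mRNA entry channel, was higher by 0.64 ± 0.14 and Rps18 by 0.38 ± 0.11, the latter lost without pooled S-shaped body replicate 3 or collecting duct replicate 3. The 3 probe sets of Rps28 changed by 0.29 (the chosen one, adjusted p 0.0941), 0.82 (adjusted p 0.00203) and -0.10 (adjusted p 0.833) by limma.

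Among the 4 lower genes, Rpl8, which lies next to the peptidyl transferase centre, read 10.45, 10.56 and 10.63 against 11.12, 11.07 and 10.98. It was lower, with a change of -0.51 ± 0.13 (adjusted p 0.0114 by limma). Rps4l, by its symbol a relative of the X-linked Rps4x, read 4.70, 4.67 and 4.75 against 6.05, 5.63 and 5.88, a change of -1.15 ± 0.26 (adjusted p 0.00463 by limma) with 2 of 3 pooled arrays above background. Its other probe set, above background on 2 of 12 arrays, changed by -0.46 (adjusted p 0.261 by limma), and Rps4x itself by -0.26 (adjusted p 0.214 by limma). Rpl22, which binds RNA at the exit-tunnel side of the large subunit, read 3.86, 5.42 and 5.41 against 6.70, 6.16 and 6.93, a change of -1.70 ± 0.44. Its second probe set, of similar brightness, changed by -0.31 (adjusted p 0.403 by limma), so the call rests on 1 of its 2 probe sets. Rps10, the fourth, changed by -0.31 ± 0.11 with overlapping arrays (adjusted p 0.0417 by limma), and leaving out any of 4 arrays (pooled S-shaped body replicates 1 and 2, collecting duct replicates 1 and 2) ended the call (adjusted p up to 0.149).

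Pooled S-shaped bodies were compared with renal vesicles directly. Of 28 genes 5 were higher and 1 lower, beside 17.5% of all probe sets higher and 19.2% lower. The median change was -0.03 for the members as for all probe sets. Small-subunit genes made up 4 of the 5 that were higher.

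Rps19 showed the largest change. Renal vesicles read 9.01, 9.07 and 9.50 and pooled S-shaped bodies 10.91, 10.49 and 10.81, with no overlap and a change of 1.55 ± 0.26 (adjusted p 0.000889 by limma), which is 2.92-fold on this scale. Single S-shaped bodies read 10.52, 10.91 and 10.75, within the range of the pooled ones, whereas collecting ducts spread from 9.07 to 10.21. Rpl37a was higher by 0.84 ± 0.17 (adjusted p 0.00298 by limma) and thus stepped up from collecting duct to renal vesicle to S-shaped body, with no overlap between neighbours.

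Rps27, the zinc-finger paralog of Rps27l, read 7.16, 6.97 and 7.22 in pooled S-shaped bodies against 6.89, 6.20 and 6.19 in renal vesicles, higher by 0.69 ± 0.22 (adjusted p 0.0312 by limma). Leaving out renal vesicle replicate 3 or 4, or pooled S-shaped body replicate 1 or 3, ended this call (adjusted p up to 0.0994). Rps3 was higher by 0.56 ± 0.14. Rps28, also a small-subunit protein, was higher by 0.41 ± 0.13, a call lost without renal vesicle replicate 2 or 3 or pooled S-shaped body replicate 2; its second bright probe set was higher by 0.67 (adjusted p 0.00747 by limma). Rpl8 was the 1 lower gene, at 10.84, 11.37 and 11.29 in renal vesicles, with a change of -0.62 ± 0.13 (adjusted p 0.00419 by limma). For Rpl10a the probe sets disagreed: the chosen one changed by -0.08 (adjusted p 0.565) and the other was higher by 0.71 (adjusted p 0.00629), both by limma. So did those of Rpl19, at -0.01 (adjusted p 0.968) for the chosen one and 1.75 (adjusted p 0.00769) for the other by limma. That other probe set was above background on only 5 arrays. Its renal vesicle arrays read 3.88, 3.15 and 3.75, near the 2.85 of a zero signal, so the size of the 1.75 is uncertain. Against collecting ducts it was higher, like the chosen one, in pooled (1.60, adjusted p 0.0120) and single S-shaped bodies (1.89, adjusted p 0.0189) by limma. In renal vesicles it was not (-0.15). Its collecting duct arrays read 2.85, 4.04 and 4.34, also at or near a zero signal, so the sizes of these changes are uncertain too.

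**Figure D3:**
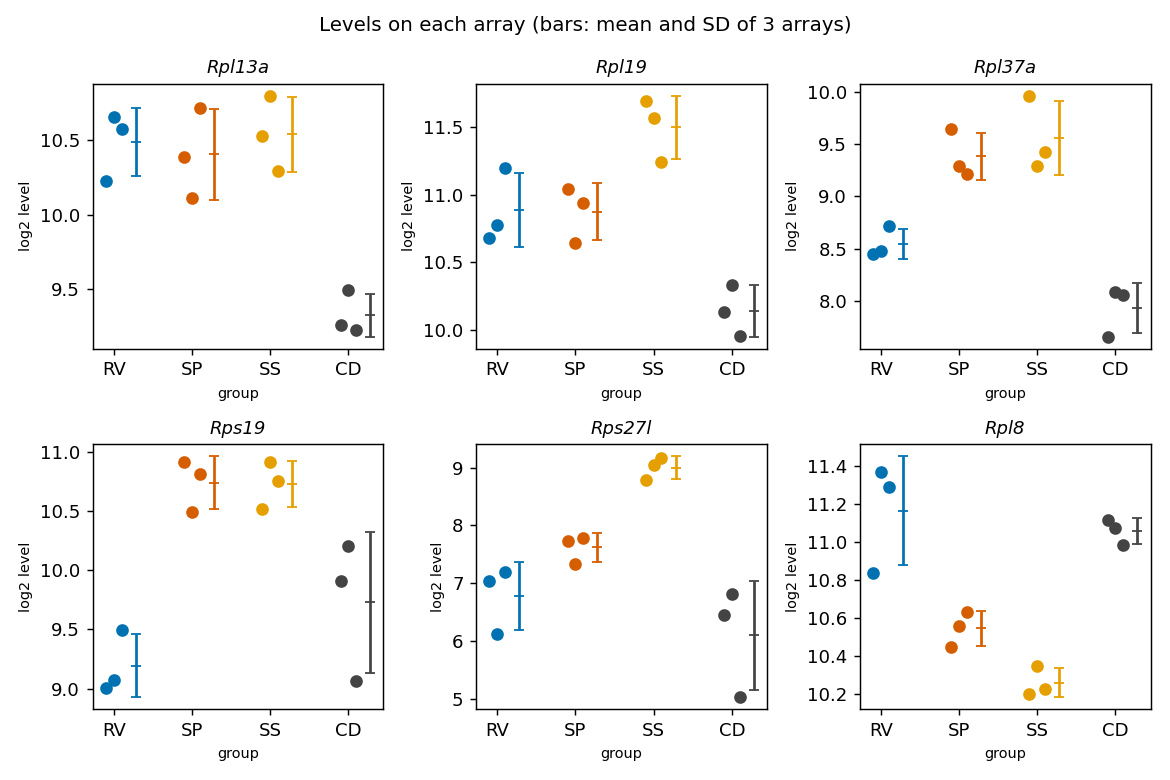
Log2 level of 6 genes on each array (points) in renal vesicles (RV), pooled (SP) and single (SS) S-shaped bodies and collecting ducts (CD), with the mean and SD of 3 arrays beside them; each panel has its own axis range. On this quantile-normalized scale Rpl13a and Rpl19 are lowest in collecting duct, Rps19 has its lowest mean in renal vesicle, where it overlaps collecting duct, and Rpl8 is lower in both kinds of S-shaped body than in the other groups.

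Single and pooled S-shaped bodies share the structure and differ in the amount of starting material. Of 29 genes 1 was higher and 0 lower, beside 0.247% of all probe sets higher and 0.150% lower; at an unadjusted p under 0.05, 10 genes passed, beside 17.8% of all probe sets. The higher gene was Rps27l, at 8.78, 9.04 and 9.17 against 7.73, 7.34 and 7.79. Every single-structure array lay above every pooled array, by 1.38 ± 0.20 on average (adjusted p 0.0353 by limma). The call was lost when any of the 6 arrays was left out (adjusted p 0.0547 to 0.163), although the change stayed between 1.24 and 1.49. Rps7 (0.89 ± 0.21, adjusted p 0.0996) and Rpl7a (0.70 ± 0.13, adjusted p 0.0651) had the next largest positive changes among the bright genes and did not pass in limma.

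Against collecting ducts, single S-shaped bodies gave the most calls of the 5 comparisons. Of 29 genes 11 were higher and 3 lower, beside 16.0% of all probe sets higher and 17.9% lower, and the median change was 0.37 against -0.07 over all probe sets. Large-subunit genes had 5 of 14 higher with a median of 0.30, small-subunit genes 6 of 15 with a median of 0.37. Rps27l was higher by 2.90 ± 0.43 (adjusted p 0.00127 by limma), or by 2.37 without collecting duct replicate 3.

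Rpl37a read 9.96, 9.29 and 9.43 in single S-shaped bodies, higher than collecting duct by 1.63 ± 0.22. Rpl19 read 11.69, 11.57 and 11.24, higher by 1.36 ± 0.16, and Rpl13a read 10.53, 10.80 and 10.29, higher by 1.21 ± 0.17; the 3 had adjusted p values of 0.000905, 0.000418 and 0.000886 by limma. Rps7, a small-subunit protein that also binds the p53 regulator MDM2, read 11.28, 11.54 and 11.25 against 10.25, 10.41 and 10.09, higher by 1.11 ± 0.14 (adjusted p 0.000564 by limma). None of the arrays of these 4 genes overlapped between the groups. The other 6 higher genes changed by 0.39 (Rps24) to 1.00 (Rps19). For Rps24 the other probe set changed by -0.30 (adjusted p 0.601 by limma), and the call was lost without any 1 of the 3 collecting duct arrays or single S-shaped body replicate 4. The Rps19 call was lost without collecting duct replicate 1 or single S-shaped body replicate 4 or 5, that of Rpl10a without collecting duct replicate 1 or 3, and that of Rps3 without collecting duct replicate 3 or single S-shaped body replicate 4. Rps28 was higher with both bright probe sets (0.49 and 1.08), while its dim one changed by -0.23 (adjusted p 0.686 by limma).

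Rpl8 was again lower, at 10.20, 10.35 and 10.23, with a change of -0.80 ± 0.11 (adjusted p 0.00105 by limma). Rpl22 changed by -2.54 ± 0.68 (adjusted p 0.0209 by limma), with 1 of 3 single-structure arrays above background; its second probe set changed by -1.29 (adjusted p 0.139). Without 1 array, whichever of 5, the Rpl22 call was lost; the exception was single S-shaped body replicate 3. Rps15, at the decoding side of the small subunit, was called lower (adjusted p 0.0257 by limma) but was above background on 0 of 3 single-structure arrays and on 2 of 3 collecting duct arrays, so no fold is given, and the call was lost without any 1 of the 3 collecting duct arrays.

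The size of the family's median change and its counts of calls depended on how arrays were scaled. In each comparison the median kept its sign under quantile, 75th percentile and trimmed mean scaling and turned on the deposited scale. Relative to all probe sets, the median kept its sign under all 4 scalings. It was as small as -0.0045 for pooled S-shaped body against renal vesicle with quantile normalization. Quantile normalization gives a probe set of the same rank the same value on every array, and the median percentile of the 20 bright genes was 99.0 to 99.4 (group means). Some of the 20 ranked lower, with Rps27l at percentiles of 48.0 to 92.1, Rps27 at 63.0 to 75.1 and Rpl37a at 79.8 to 95.9. Scaling each array to its 75th percentile instead keeps the spread of the bright end. On that scale the median intensity of the 20 bright genes was 28.8 to 35.1 times the array's 75th percentile in single S-shaped bodies, 17.2 to 24.7 times in renal vesicles, 14.47 to 16.95 times in pooled ones and 13.6 to 17.5 times in collecting ducts.

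For renal vesicles against collecting ducts, 12 genes were higher and 1 lower with 75th percentile scaling (all probe sets 15.4% higher, 10.6% lower), and 9 higher and 2 lower with a trimmed mean (11.9% and 13.7%). The median change of the 28 genes rose from 0.06 to 0.45 and 0.29. Of the 12, 9 belonged to the large subunit, among them Rplp0 (0.79), Rpl41 (0.78), the shortest ribosomal protein, and Rpl10a (0.75). The lower gene was Rps27 (-0.67). Rplp0 had read 0.28 ± 0.11 with quantile normalization (adjusted p 0.09998 by limma), so its call turned on the scaling.

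Pooled S-shaped bodies against renal vesicles turned from 5 higher and 1 lower to 3 higher and 6 lower under both of these scalings, beside 16.1% of all probe sets higher and 20.9% lower at the 75th percentile and 19.5% and 17.6% with the trimmed mean. The 3 higher were Rpl37a, Rps19 and Rps27. Rpl7, Rpl7a, Rpl8, Rpl10a, Rps10 and Rps24 were lower, with changes from -0.54 (Rpl10a) to -0.99 (Rpl8) at the 75th percentile. The members' median relative to all probe sets was -0.00 with quantile normalization, -0.20 at the 75th percentile and -0.19 with the trimmed mean. The change of Rps28 went from 0.41 to -0.035.

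For single against pooled S-shaped bodies the count went from 1 to 10 higher under both scalings, beside 1.22% and 0.934% of all probe sets (0 lower, beside 0.343% and 0.365%), with 5 genes of each subunit. Rps24 (2.11), Rpl7a (1.80) and Rps7 (1.54) led at the 75th percentile. Against collecting ducts, single S-shaped bodies went to 16 higher and 3 lower at the 75th percentile (17.2% and 16.6% of all probe sets) and to 15 higher and 3 lower with the trimmed mean (16.2% and 17.8%), and the members' median rose to 1.18 and 1.12. Pooled S-shaped bodies against collecting ducts changed least, with 8 higher and 3 lower under both (18% and 18.6% of all probe sets at the 75th percentile, 18% and 19.5% with the trimmed mean), and Rps10 no longer called.

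On the deposited scale, with no normalization, the members' median changed in the same direction as the median of all probe sets in each comparison. The median over all probe sets shifted by -1.39 for renal vesicle against collecting duct, -0.46 for pooled S-shaped body against collecting duct, 0.94 for pooled S-shaped body against renal vesicle, -2.20 for single against pooled S-shaped body and -2.56 for single S-shaped body against collecting duct. Rplp0, for example, had deposited intensities of 6682, 5207 and 4732 in collecting ducts and 2487, 3504 and 3261 in renal vesicles. Its pooled S-shaped body arrays read 5364, 6259 and 6599, and the single ones 656, 2384 and 2522. Most of the members' calls had the direction of that shift. Renal vesicle against collecting duct gave 0 higher and 26 lower, beside 2.52% of all probe sets higher and 75.5% lower, and pooled S-shaped body against renal vesicle 21 higher and 0 lower, beside 54.8% and 3.53%. Pooled S-shaped body against collecting duct gave 2 higher and 7 lower, beside 10.4% and 31.6%. Single S-shaped bodies gave 0 higher and 24 lower of 30 genes against pooled ones, beside 0.225% and 89.4%, and 0 higher and 26 lower of 29 against collecting ducts, beside 2.14% and 86.9%. Taken relative to the shift of all probe sets, the members' median was 0.23 for renal vesicle and 0.16 for pooled S-shaped body against collecting duct. It was -0.12 for pooled S-shaped body against renal vesicle. For single S-shaped bodies it was 0.51 against pooled ones and 0.73 against collecting ducts.

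**Figure D4:**
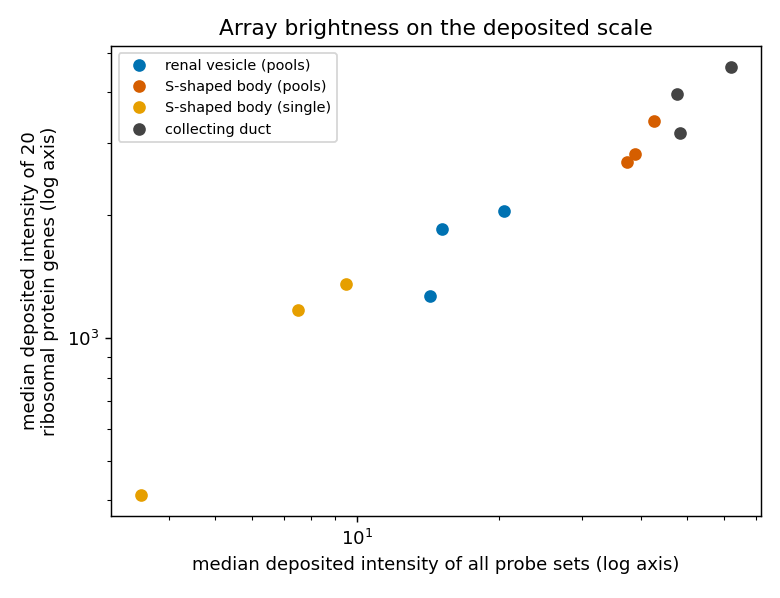
Median deposited intensity of the 20 bright ribosomal protein genes (y, log axis) against the median of all probe sets (x, log axis), 1 point an array, coloured by group. The array medians span 17.8-fold; collecting duct arrays lie at the upper right and single S-shaped bodies at the lower left.

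**Figure D5:**
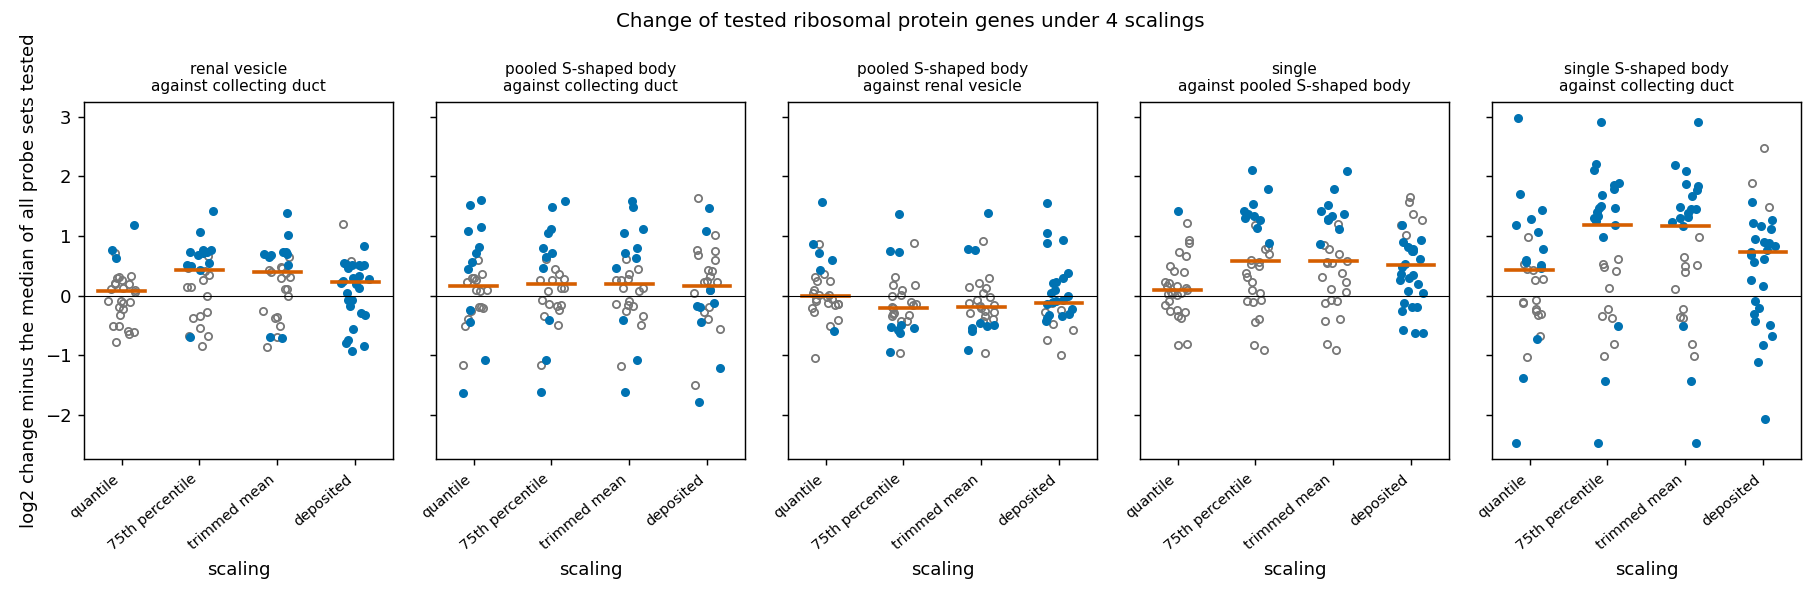
Log2 change of each tested gene (points) minus the median of all probe sets tested, in 5 comparisons (panels) and under 4 scalings (x); filled points have an adjusted p under 0.05 and the bar is the members' median. For single S-shaped body against collecting duct the bar is at 0.44 with quantile normalization and at 1.19 with 75th percentile scaling.

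Calls that held in the same direction under quantile, 75th percentile and trimmed mean scaling were all 3 higher genes of renal vesicle against collecting duct (10.8% of all probe sets held as higher and 10.2% as lower), and 8 higher and 3 lower genes (Rpl22, Rpl8 and Rps4l) of pooled S-shaped body against collecting duct (17.5% and 18.5%). For pooled S-shaped body against renal vesicle they were 3 higher (Rpl37a, Rps19 and Rps27) and 1 lower (Rpl8), beside 15.8% and 16.9%. For single S-shaped bodies they were Rps27l against pooled ones (0.248% and 0.140%) and 11 higher and 3 lower genes against collecting ducts (15.4% and 16.5%).

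Other genes that serve translation were counted in the same way, in lists drawn up with earlier results of these data known. Of 41 ribosome biogenesis genes tested, 13 were higher and 0 lower in renal vesicles than in collecting ducts, and 0 were higher and 20 lower in pooled S-shaped bodies than in renal vesicles (0 and 23 at the 75th percentile, 0 and 18 with the trimmed mean, 13 and 5 on the deposited scale), beside the background given above. For renal vesicles against collecting ducts the counts were 18 and 0 at the 75th percentile and 15 and 0 with the trimmed mean, and turned to 2 higher and 33 lower on the deposited scale. Mycn, a transcription factor that drives ribosome biogenesis, was higher by 3.26 ± 0.18 in renal vesicles than in collecting ducts and changed by -2.72 ± 0.18 from renal vesicle to pooled S-shaped body. Ncl, the nucleolar protein nucleolin, changed by -2.69 ± 0.20 in the latter comparison, and these 3 adjusted p values were under 0.05 by limma. Bop1, a processing factor of the large subunit, lay above background in every renal vesicle array (3 of 3), but on 0 arrays of pooled S-shaped bodies and of collecting ducts. It was at least 1.61-fold higher in renal vesicles than in the former and at least 1.57-fold higher than in the latter, taking the lowest signal above background on each dim array as the limit. Against collecting ducts the biogenesis list gave 5 higher and 11 lower of 41 in pooled and 3 higher and 10 lower of 40 in single S-shaped bodies. Beside these stood 18.2% and 20.0%, and 16.0% and 17.9%, of all probe sets. Ncl changed by -2.10 ± 0.20 and -3.14 ± 0.21 in these comparisons. Fbl, the rRNA methyltransferase fibrillarin, was above background on 0 of 3 single-structure arrays and at least 3.98-fold lower there than in collecting ducts.

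Elongation factors and other TOP mRNA genes gave 2 higher and 0 lower of 19 in renal vesicles against collecting ducts, 2 and 6 in pooled S-shaped bodies against collecting ducts, and 2 and 9 in pooled S-shaped bodies against renal vesicles. Of all probe sets, 12.3% were higher and 11.6% lower, 18.2% and 20.0%, and 17.5% and 19.2% in these comparisons. Eef2, which moves the ribosome along the mRNA, changed by -1.30 ± 0.14 in the last comparison and Eef1d, a subunit of the exchange factor for Eef1a, by -1.35 ± 0.23, while Btf3 was higher by 1.39 ± 0.20. Of 20 initiation factors, 4 were higher and 1 lower, 4 and 7, and 2 and 9 in the same order. The helicases that unwind mRNA leaders split: Eif4a1 changed by -2.07 ± 0.32 and Eif4a2 by 1.38 ± 0.18 between pooled S-shaped bodies and renal vesicles. Of 59 mitochondrial ribosomal protein genes tested, 3 were higher and 2 lower, 15 and 2, and 18 and 6, with Mrps14 higher by 2.45 ± 0.29 and Mrps21 by 3.002 ± 0.56 in the last comparison. All values named here passed in limma. For renal vesicles against collecting ducts the mitochondrial shares, 5.08% higher and 3.39% lower, lay under those of all probe sets. So did the TOP mRNA share of 10.5% higher. The TOP mRNA count there rose to 7 higher and 0 lower at the 75th percentile, beside 15.4% and 10.6% of all probe sets. On the deposited scale the comparison of pooled S-shaped bodies with renal vesicles gave 9 and 0, 10 and 1, and 43 and 0 for these 3 lists. Of all probe sets, 54.8% were higher and 3.53% lower there.

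In single S-shaped bodies against collecting ducts the same lists gave 2 higher and 6 lower of 18 (elongation factors and other TOP mRNA genes), 1 and 3 of 21 (initiation factors) and 18 and 5 of 59 (mitochondrial). Of all probe sets, 16.0% were higher and 17.9% lower there. With quantile normalization each of the 4 lists had 0 calls between single and pooled S-shaped bodies in limma, while 4 of 19 (elongation factors and other TOP mRNA genes), 5 of 21 (initiation factors), 10 of 39 (biogenesis) and 13 of 59 (mitochondrial) genes passed an unadjusted p under 0.05. Between these groups 0.247% of all probe sets were called higher and 0.150% lower, and 17.8% passed the unadjusted cut. At the 75th percentile 1 TOP mRNA gene and 1 mitochondrial gene were higher, beside 1.22% of all probe sets. With the trimmed mean 1 TOP mRNA gene was higher, beside 0.934%. On the deposited scale 19, 19, 39 and 60 genes were lower, beside 89.4%. Among ribosomal protein genes outside the symbol rule, 3 of 9 listed were measured, and Rpl7l1, a paralog of Rpl7, was higher by 1.33 ± 0.22 in renal vesicles than in collecting ducts and changed by -1.51 ± 0.22 from renal vesicle to pooled S-shaped body. Of the stalk and exit-tunnel genes listed, Rplp0 and Rpl22 were the 2 measured, and their values are given above.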

How the data were processed

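The authors deposited 1 linear intensity per probe set and array; per the submitters' processing notes GCOS was used, with a version, summary method and scaling not given in the sources used here. Gene symbols came from the platform annotation: 10833 of 12422 probe sets have 1 symbol, 396 several and 1193 none; 66 control probe sets were left out. Because array medians differed 17.8-fold, values were quantile normalized over 12 arrays, negative values set to 0, a pseudocount of 7.22 added and log2 taken. Probe sets whose mean lay under the 25th percentile of the fit were dropped. Tests were two-sided with limma 3.58.1 in R 4.3.3 (empirical Bayes with trend, Benjamini-Hochberg over all 9316 probe sets), checked on simulated data. No 2 arrays held identical values. The number of arrays limits the precision, and since the labels call each pool or structure a biological replicate without saying whether embryos were shared, p-values reflect the spread of these samples, part of which may be technical.

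Members and lists were chosen with earlier results of these data known. Genes were named by rule: up to 5 called per direction and comparison with the largest change, the stalk genes, the 3 brightest and 3 dimmest, paralogs by symbol, genes whose probe sets disagree in sign with 1 called, and up to 3 called genes of each other list; Rps7 and Rpl7a between single and pooled S-shaped bodies, and genes called under other scalings, were named after their values were seen. Of the other lists' genes that the rule selects, part is printed. Alternatives were 3 other scalings, 3 pseudocounts, other filters, no trend, other samples in the fit, the replicate block, other probe sets and leaving out each array; those that use only bright genes or the other Rps24 probe set were added after seeing the data. Same-numbered samples did not deviate together (correlations from -0.09 to 0.05).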

Additional observations from a re-analysis of the deposited data

How the results depend on the processing

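The deposited scale moved more of the 36 named calls than any other setting tried, with 5 lost and 17 changed in sign. Without the trend 11 of the 36 were lost, and with no filter 9. Scaling to the 75th percentile lost 2 and turned 1, and the trimmed mean lost 3. On the deposited scale, the count of ribosomal protein genes called became 26 for renal vesicle against collecting duct, 21 for pooled S-shaped body against renal vesicle, 24 for single against pooled S-shaped body and 26 for single S-shaped body against collecting duct, and the members' median change became -1.16, 0.83, -1.69 and -1.83, with -0.30 for pooled S-shaped body against collecting duct. Scaling to the 75th percentile gave counts of 13 (renal vesicle against collecting duct) and 10 (single against pooled), and medians of 0.45, -0.25 (pooled S-shaped body against renal vesicle), 0.59 and 1.18 (single S-shaped body against collecting duct). The trimmed mean gave counts of 11 and 10 and medians of 0.54 and 1.12 for the same single-structure comparisons.

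Of 36 named calls 17 changed sign on the deposited scale. Against collecting duct in renal vesicles these were Rpl13a (-0.18), Rpl19 (-0.55) and Rpl37a (-0.87), in pooled S-shaped bodies Rps18 (-0.034), and in pooled S-shaped body against renal vesicle Rpl8 (0.19). In single S-shaped bodies they were Rps27l against pooled ones (-1.27) and, against collecting ducts, Rpl10a (-1.68), Rpl13a (-1.69), Rpl19 (-1.07), Rpl37a (-1.44), Rpl7a (-1.30), Rps19 (-1.83), Rps24 (-0.98), Rps27l (-0.094), Rps28 (-1.34), Rps3 (-1.94) and Rps7 (-1.39). Scaling to the 75th percentile turned 1, Rps28 in pooled S-shaped body against renal vesicle (-0.035). No other setting tried changed a sign.

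For single against pooled S-shaped body, the count was 0 with no filter, 0 without the trend, 0 without probe sets of shared or mixed sequence (Rps27l has such a probe set) and 3 with all 12 arrays in the fit. With no filter the count for single S-shaped body against collecting duct was 9. With the replicate number as a block, the count for renal vesicle against collecting duct was 1, and 17 of 21 named calls stayed past the threshold while 4 did not; the numbers do not pair the samples. No paired analysis was possible for single structures because they share 1 number with the groups they are compared with. Every pseudocount tried left all 36 calls as they were, and so did the filter at the 50th percentile for the 35 genes it kept. For the changed filters and fits in this paragraph, the share of all probe sets called was not taken. Their counts of called genes therefore have no background beside them.

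Leaving out each array in turn gave counts of 2 to 6 (renal vesicle against collecting duct), 10 to 13 (pooled S-shaped body against collecting duct), 4 to 9 (pooled S-shaped body against renal vesicle), 0 to 0 (single against pooled) and 9 to 16 (single S-shaped body against collecting duct). The count of 2 came without renal vesicle replicate 4 and that of 6 without renal vesicle replicate 2; that of 4 without renal vesicle replicate 3 and that of 9 without collecting duct replicate 3; and the single-structure 9 came without collecting duct replicate 1. The share of all probe sets called in these fits was not taken. The counts therefore show how far the calls depend on single arrays and nothing particular to these genes. The members' medians ranged from -0.06 to 0.16, 0.05 to 0.16, -0.08 to 0.08, -0.03 to 0.16 and 0.18 to 0.40. The mean shares of summed intensity ranged from 2.31% to 2.57%, 2.24% to 2.29%, 1.83% to 2.04% and 4.03% to 4.50% in renal vesicles, pooled S-shaped bodies, collecting ducts and single S-shaped bodies. With the other Rps24 probe set these shares were 2.14%, 2.02%, 1.71% and 3.34%. The causes of these shifts were not tested. The 12 genes not above background on every array have levels that signal over background limits.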
